A study of Solanum lycopersicum with 26 samples.

Results

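The genes that build the photosynthetic light reactions were followed in the embryo and the endosperm of mature tomato seeds. Members were the 281 IDs that the study's MapMan annotation, which sorts genes into functional bins, places under photophosphorylation. Of these, 260 were among the 33976 IDs of the count table, and 21 were not. They comprised 64 IDs annotated as components that plastids encode and 196 others, and the 196 were grouped by role. There were 21 genes of the light-harvesting complex (LHC) of photosystem II (PSII) and 9 of that of photosystem I (PSI). The PSII group held 15 genes for core and oxygen-evolving proteins and 28 for assembly, and the PSI group held 14 for the core and 6 for assembly. A further 14 acted in acclimation and photoprotection, 10 encoded stress-enhanced (SEP) and early light-induced (ELIP) proteins, 16 belonged to cytochrome b6/f, 3 to plastocyanin and cytochrome c6, and 17 to ferredoxin, its NADP reductase (FNR) and cyclic electron flow. The last groups were 34 genes of the NADH dehydrogenase-like (NDH) complex, its assembly and the plastid terminal oxidase, and 9 of the ATP synthase.

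In the light reactions, antenna proteins pass absorbed energy to PSII, which takes electrons from water, and cytochrome b6/f and plastocyanin carry the electrons on to PSI. Ferredoxin and FNR then reduce NADP, while the ATP synthase uses the proton gradient built on the way. Many angiosperm embryos green while the seed fills and lose their chlorophyll as it dries, and the endosperm of a tomato seed is a storage tissue.

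Seeds of Solanum lycopersicum cv. Moneymaker came from fruits that were picked at breaker, 63 days after flowering (DAF), and left to ripen for 7 days until 70 DAF. All groups shared this genotype, age and ripening off the plant. The environments joined standard (ST, 23 °C by day and 20 °C by night) or high temperature (HT, 32 °C and 26 °C) with high (HL, 300 µE) or dim light (DL, 25 µE), each with a 16 h photoperiod. RNA from hand-dissected tissue, pooled from several seeds for each replicate, was sequenced in 14 embryo and 12 endosperm libraries. ST_HL and HT_DL embryo had 4 libraries each and the other 6 groups had 3 each, and nothing in the labels says which replicates came from separate plants, so p-values measure the spread between these libraries.

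Total counts lay between 20450644 and 21519318 per library. Levels are given as CPM (counts relative to library sizes adjusted by edgeR's TMM method), so that 1 CPM was 18.3 to 25.2 counts. Members that the filter for low counts kept numbered 171 in the embryo and 141 in the endosperm, and 7 members had no count in any library. Lipid-body protein genes, a check of the seed tissue, summed to between 5487 and 11885 CPM in every library. In the embryo, 4 libraries stood apart on the first principal component of all genes, namely ST_HL replicates 2 and 3 and HT_DL replicates 2 and 3 (119 to 126, against -66.1 to -25.9 in the other 10), so results that rest on them are given with and without them.

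Antenna and photosystem genes had low counts in both tissues. The 21 PSII antenna genes together reached between 4.13 and 22 CPM in a library, and the 9 PSI antenna genes between 6.28 and 15.8 CPM. The 14 PSI core genes summed to between 7.54 and 38.5 CPM. The 15 genes for PSII core and oxygen-evolving proteins reached between 18.7 and 67.7 CPM, and plastocyanin with cytochrome c6 to between 2.65 and 9.86 CPM. These genes therefore took a very small share of the counts. Not all members were low. Over all 260 members the sum was between 3393 and 5259 CPM.

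Most of that sum came from 6 genes for Cpn60 chaperonin subunits, which fold plastid proteins in general and are binned here under NDH assembly. They summed to between 1802 and 3591 CPM, and the remaining 28 genes of the NDH group to between 128 and 198 CPM. The Cpn60 alpha gene Solyc11g069790.2.1 alone had 1319.8, 1207 and 1145 CPM in ST_HL endosperm. PSII assembly genes summed to between 129 and 231 CPM, acclimation and photoprotection genes to between 122 and 381 CPM, and SEP and ELIP genes to between 79.4 and 172 CPM. CPM is not divided by transcript length, and fewer cells of a type and less RNA per cell cannot be told apart in tissue RNA.

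**Figure D1:**
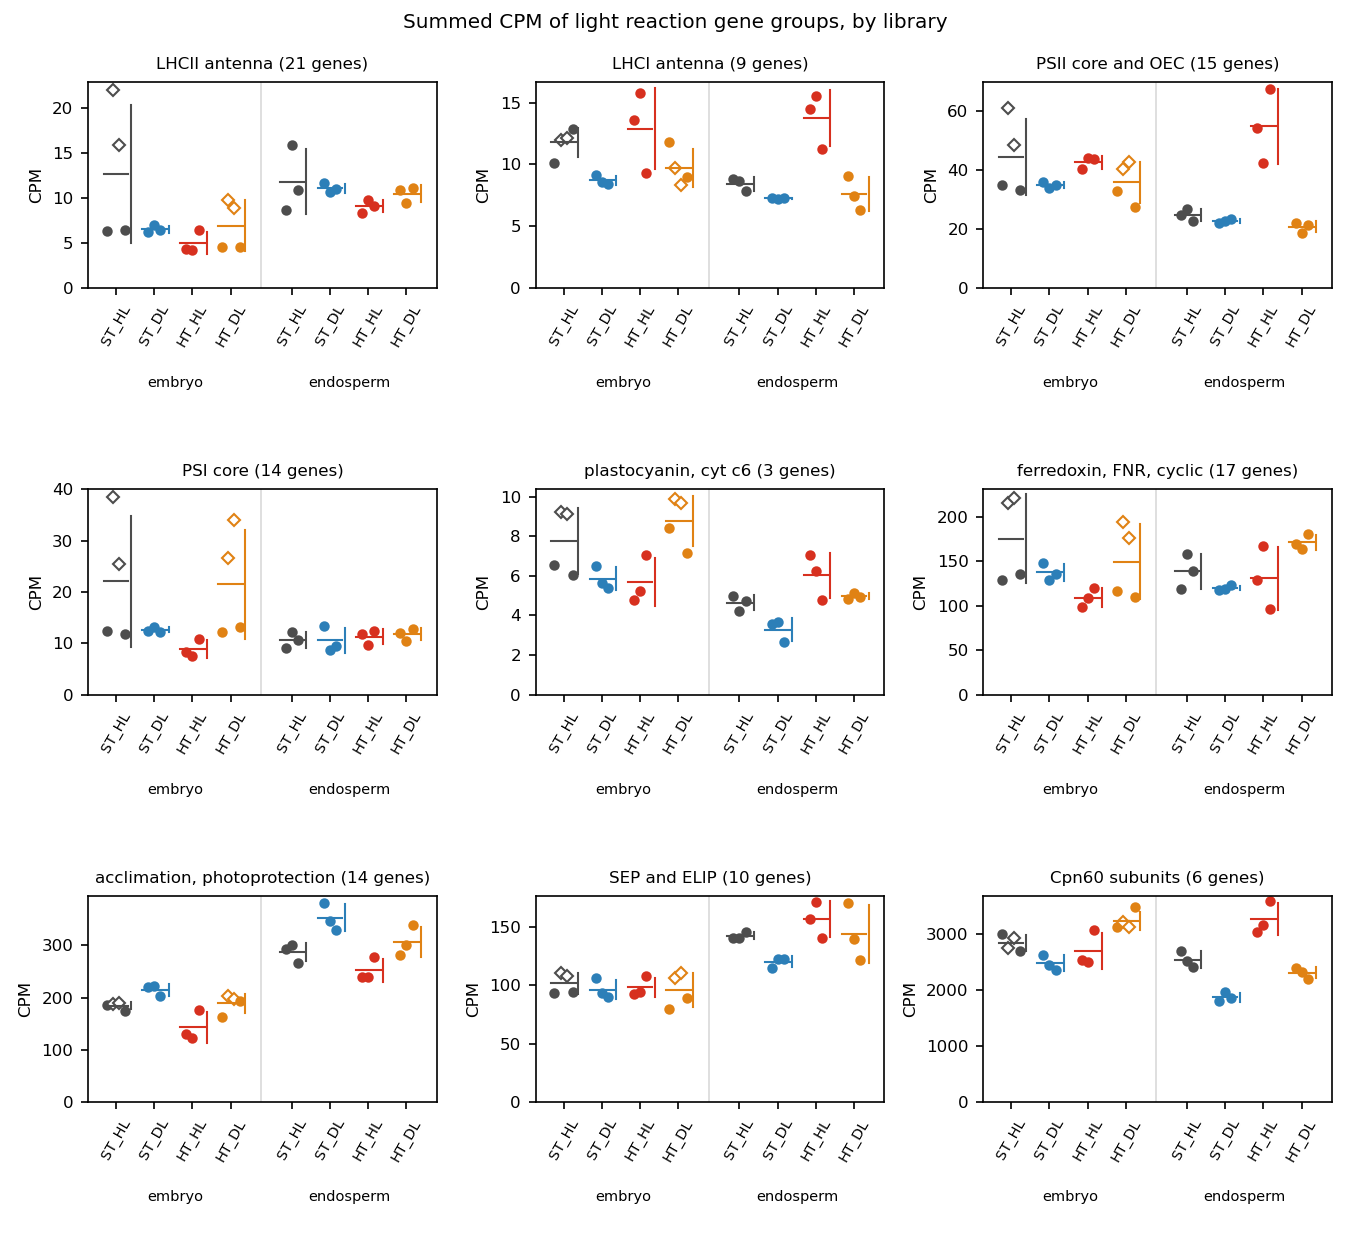
Summed CPM (vertical axes, from 0) of 9 gene groups in each of the 26 libraries, by condition and tissue. Points are libraries, open diamonds are ST_HL 2 and 3 and HT_DL 2 and 3 of the embryo, horizontal lines are means and vertical lines are 1 SD on each side. The diamonds are the highest embryo points for the PSI core (25.5 to 38.5 CPM, against 7.54 to 13.2 in the other 10), and Cpn60 subunits reach 3591 CPM in HT_HL endosperm.

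Within the embryo, PSI core and PSII antenna genes were highest in the 4 libraries that stood apart. The PSI core sum was 38.5 and 25.5 CPM in ST_HL replicates 2 and 3 and 26.6 and 34 CPM in HT_DL replicates 2 and 3. In ST_HL replicates 1 and 4 it was 12.4 and 11.8 CPM, and in HT_DL replicates 1 and 4 it was 12.3 and 13.2 CPM. ST_DL libraries had 12.4, 13.2 and 12.3 CPM and HT_HL libraries 8.31, 7.54 and 10.9 CPM. The 4 libraries were thus above the other 10 with no overlap, within ST_HL and HT_DL as well as across conditions. The ferredoxin group followed the same division, with 176 to 221 CPM against 98 to 148 CPM, and so did the PSII antenna, with 8.83 to 22 CPM against 4.13 to 6.94 CPM. The PSI antenna did not (8.29 to 12.1 CPM against 8.39 to 15.8 CPM), nor did the PSII core (40.3 to 61 CPM against 27.4 to 44.2 CPM). The division was not limited to the light reactions. Photorespiration genes summed to between 715 and 795 CPM in the 4 libraries and between 604 and 704 CPM in the other 10, and genes of mitochondrial oxidative phosphorylation to between 5074 and 5561 CPM and between 4168 and 5043 CPM. Lipid-body protein genes lay lower, though with overlap, at 5487 to 6858 CPM and 6435 to 11885 CPM, and the part of tissue makeup was not tested.

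Gene by gene, 56 of the 171 members tested were higher in all of these 4 libraries than in any of the other 10, which is 32.7%, beside 17.4% of all 19253 genes tested. Only 3 of the 171 were lower without overlap, beside 7.45% of all genes tested. By the same count, 52.6% of photorespiration, 29% of Calvin cycle and 28.4% of mitochondrial oxidative phosphorylation genes tested were higher. The 4 libraries were told apart from the expression of all genes, members included, and are not a group of the study, so no test was made. The filter for low counts also kept some genes only through these libraries. Without them it kept 143 members and 18179 genes in all, so the shares that were higher depend partly on the filter. The 56 included 5 of 7 tested PSI core genes, 4 of 6 PSII antenna genes, 10 of 27 PSII assembly genes and 6 of 13 genes of the ferredoxin group, and none of the 35 plastid-encoded IDs tested. The 3 lower members were the translation activators HCF173 (Solyc08g016080.3.1, for psbA) and LPE1 (Solyc02g093620.2.1, for psbJ and psbN) and a plastid-encoded ccsA ID.

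Several of the 56 were nearly silent elsewhere. A gene for PsbO (Solyc02g090030.2.1), the protein that stabilises the manganese cluster of the oxygen-evolving complex, had between 120 and 211 counts in each of the 4 libraries and 5 counts in all of the other 10 together. The Rieske protein of cytochrome b6/f (PetC, Solyc12g005630.2.1) had 28 to 43 counts and 1 count, and a plastocyanin gene (Solyc04g082010.1.1) had 47 to 58 counts and 9 counts. Violaxanthin de-epoxidase (Solyc04g050930.3.1), which makes zeaxanthin in strong light, had 34 to 77 counts and 5 counts. Other copies of some of these genes did not follow. The other PsbO gene (Solyc02g065400.3.1) had 9.76, 10.2, 10.7 and 12 CPM in ST_HL, and the other plastocyanin gene (Solyc04g082000.4.1) had 5.86, 5.44, 5.6 and 5.42 CPM there. In both, replicates 2 and 3 lay between replicates 1 and 4. A PsbP gene (Solyc07g044860.3.1), also of the oxygen-evolving complex, differed less, with 6.55 to 11.1 CPM in the 4 libraries and 0.869 to 1.88 CPM in the other 10.

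**Figure D2:**
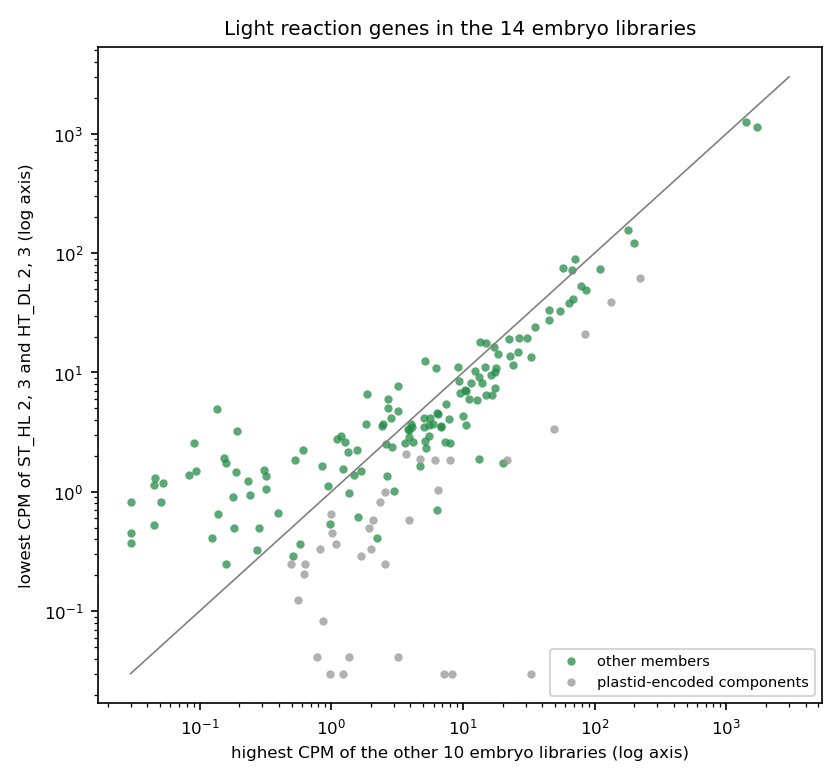
Lowest CPM among ST_HL 2, ST_HL 3, HT_DL 2 and HT_DL 3 (vertical, log axis) against the highest CPM among the other 10 embryo libraries (horizontal, log axis), for the 171 members tested, with values under 0.03 CPM drawn at 0.03. Points above the line are the 56 members higher in all 4 libraries, and no grey point (plastid-encoded) is among them.

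The effect of heat in high light was asked by comparing HT_HL with ST_HL. A gene was called when edgeR's quasi-likelihood test gave a Benjamini-Hochberg adjusted p below 0.05 over all genes tested and the absolute log2 fold change was above 1. In the embryo, 9 of 171 members were called, 2 higher and 7 lower, which was 5.26% beside 4.84% of all genes tested (1.43% higher and 3.41% lower). The median log2 fold change was -0.31 over the members and -0.07 over all genes tested. Without the 4 libraries that stood apart, the median was -0.08 with 4 higher and 2 lower calls among 143 members. DESeq2 on all 14 embryo libraries gave 26 lower calls among 244 members tested, beside 5.8% of all genes that it called lower.

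PsaE (Solyc09g063130.3.1), a PSI subunit on the side where ferredoxin docks, was lower in HT_HL embryo. Its levels were 7.13, 11.1, 8.03 and 7 CPM in ST_HL and 1.82, 2.94 and 2.9 CPM in HT_HL, with no overlap. The log2 fold change was -1.70 ± 0.22 (SE, adjusted p = 0.00108 by edgeR), the call held in 13 of 13 alternatives, and without the 4 libraries it was -1.43. PsbR (Solyc12g017250.2.1), a small PSII subunit beside the oxygen-evolving proteins, went the other way. It had 2.3, 1.39, 0.7 and 1.81 CPM in ST_HL and 4.84, 5.2 and 6.38 CPM in HT_HL, again with no overlap, which gave a log2 fold change of 1.84 ± 0.37 (adjusted p = 0.00699 by edgeR), held in 13 of 13 alternatives. The other called higher member was a ferredoxin gene (Solyc01g103920.3.1), at 5.39, 4.75, 1.73 and 2.93 CPM in ST_HL and 14.8, 4.8 and 20 CPM in HT_HL. Its groups overlapped, and the call held in 8 of 13 alternatives. Leaving out HT_HL 1, HT_HL 3, ST_HL 3 or ST_HL 4, or fitting the 2 conditions alone, ended it.

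The lowest fold change belonged to an LHCb1/2/3 antenna gene (Solyc03g005760.1.1), with 0.188, 8.47, 5.64 and 0.135 CPM in ST_HL and 0, 0.0794 and 0.0905 CPM in HT_HL. Only ST_HL replicates 2 and 3 were clearly above 0, the HT_HL libraries held 0, 2 and 2 counts, and the call was lost without ST_HL replicate 2 or 3 or any HT_HL library. CRR1 (Solyc03g026210.4.1), an NDH assembly factor, had 1.27, 2.7, 2.63 and 1.17 CPM against 0.496, 0.119 and 0.814 CPM. Its log2 fold change of -2.02 ± 0.64 (adjusted p = 0.0473 by edgeR) lost its call in 7 of 13 alternatives, among them the fit without the 4 libraries (-1.32) and the fits without ST_HL 2, ST_HL 3, HT_HL 1 or HT_HL 2. The remaining lower calls were NdhV (Solyc09g018890.3.1, -1.25 ± 0.24) and NdhS (Solyc08g082400.1.1, -1.19 ± 0.36) of the NDH complex, the ATP synthase assembly factor BFA3 (Solyc01g110160.4.1, -1.28 ± 0.34) and HCF244 (Solyc01g112060.4.1, -1.12 ± 0.35), which in Arabidopsis is needed for synthesis of the PSII protein D1. NdhV did not overlap, with 4.3 to 6.59 CPM in ST_HL and 1.94 to 2.67 CPM in HT_HL, and kept its call without the 4 libraries (-1.49 ± 0.23). BFA3 then had the same fold change with a larger error (-1.28 ± 0.42, adjusted p = 0.0633 by edgeR), while NdhS (-0.81 ± 0.34) and HCF244 (-0.54 ± 0.31) came closer to 0, and none of these 3 was called.

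In the endosperm, heat in high light gave 11 called members of 141, 5 higher and 6 lower, or 7.8% beside 5.85% of all 19185 genes tested (3.17% higher and 2.67% lower). The median log2 fold change was 0.05 for members and -0.00 for all genes tested. The 5 higher members were PsbY, LHCa3, the ferredoxin gene, the PSI assembly factor PSA3 and PsbR. PsbY (Solyc10g077120.3.1), a small PSII subunit, had 4.65, 4.82 and 1.75 CPM in ST_HL and 22.4, 11.3 and 43.2 CPM in HT_HL. LHCa3 (Solyc12g011280.2.1), a PSI antenna protein, had 0.888, 0.659 and 0.85 CPM and 3.04, 3.49 and 2.46 CPM. Neither gene overlapped between the groups, and the log2 fold changes were 2.79 ± 0.50 (adjusted p = 0.00315 by edgeR) and 1.91 ± 0.27 (adjusted p = 0.00108 by edgeR), each held in 11 of 11 alternatives.

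The ferredoxin gene Solyc01g103920.3.1 rose here as well, from 1.31, 2.08 and 0.7 CPM to 3.79, 2.26 and 4.53 CPM without overlap (1.38 ± 0.37, adjusted p = 0.0193 by edgeR). Leaving out ST_HL 1, ST_HL 3, HT_HL 1 or HT_HL 3, or fitting the 2 conditions alone, ended the call. PSA3 (Solyc02g086890.3.1) went from 8.04, 7.3 and 5.8 CPM to 20.6, 14.2 and 14.1 CPM (1.23 ± 0.21). PsbR had 0.35 to 0.627 CPM in ST_HL and 0.836 to 1.26 CPM in HT_HL (1.19 ± 0.39, adjusted p = 0.0478 by edgeR). Ferredoxin and PsbR were thus called higher with heat in high light in both tissues.

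Among the 6 lower members, the splicing factor for the plastid ndhA transcript (Solyc02g068760.4.1) had 6.06, 5.58 and 4.4 CPM in ST_HL and 1.05, 1.28 and 1.75 CPM in HT_HL. The groups were far apart, with a log2 fold change of -1.96 ± 0.26 (adjusted p = 0.000725 by edgeR), held in 11 of 11 alternatives. HCF244 was 1.41 to 2.38 CPM in ST_HL and 0.399 to 0.738 CPM in HT_HL (-1.54 ± 0.34, adjusted p = 0.00874 by edgeR, held in 11 of 11). It too was called in both tissues, though its embryo call was lost without the 4 libraries that stood apart (-0.54 ± 0.31). The acclimation factor APE (Solyc03g034170.4.1) had 4.02, 3.8 and 3.8 CPM against 1.75, 1.92 and 1.53 CPM (-1.15 ± 0.17). An LHCb1/2/3 gene (Solyc02g070940.1.1) had 10, 102 and 39 counts in ST_HL and 4, 0 and 4 counts in HT_HL, and its call was lost without ST_HL replicate 2 or HT_HL replicate 1 or 2. HCF101 (Solyc12g007010.2.1), an iron-sulfur carrier for PSI (-1.20 ± 0.30), and a plastid-encoded atpI ID completed the list.

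**Figure D3:**
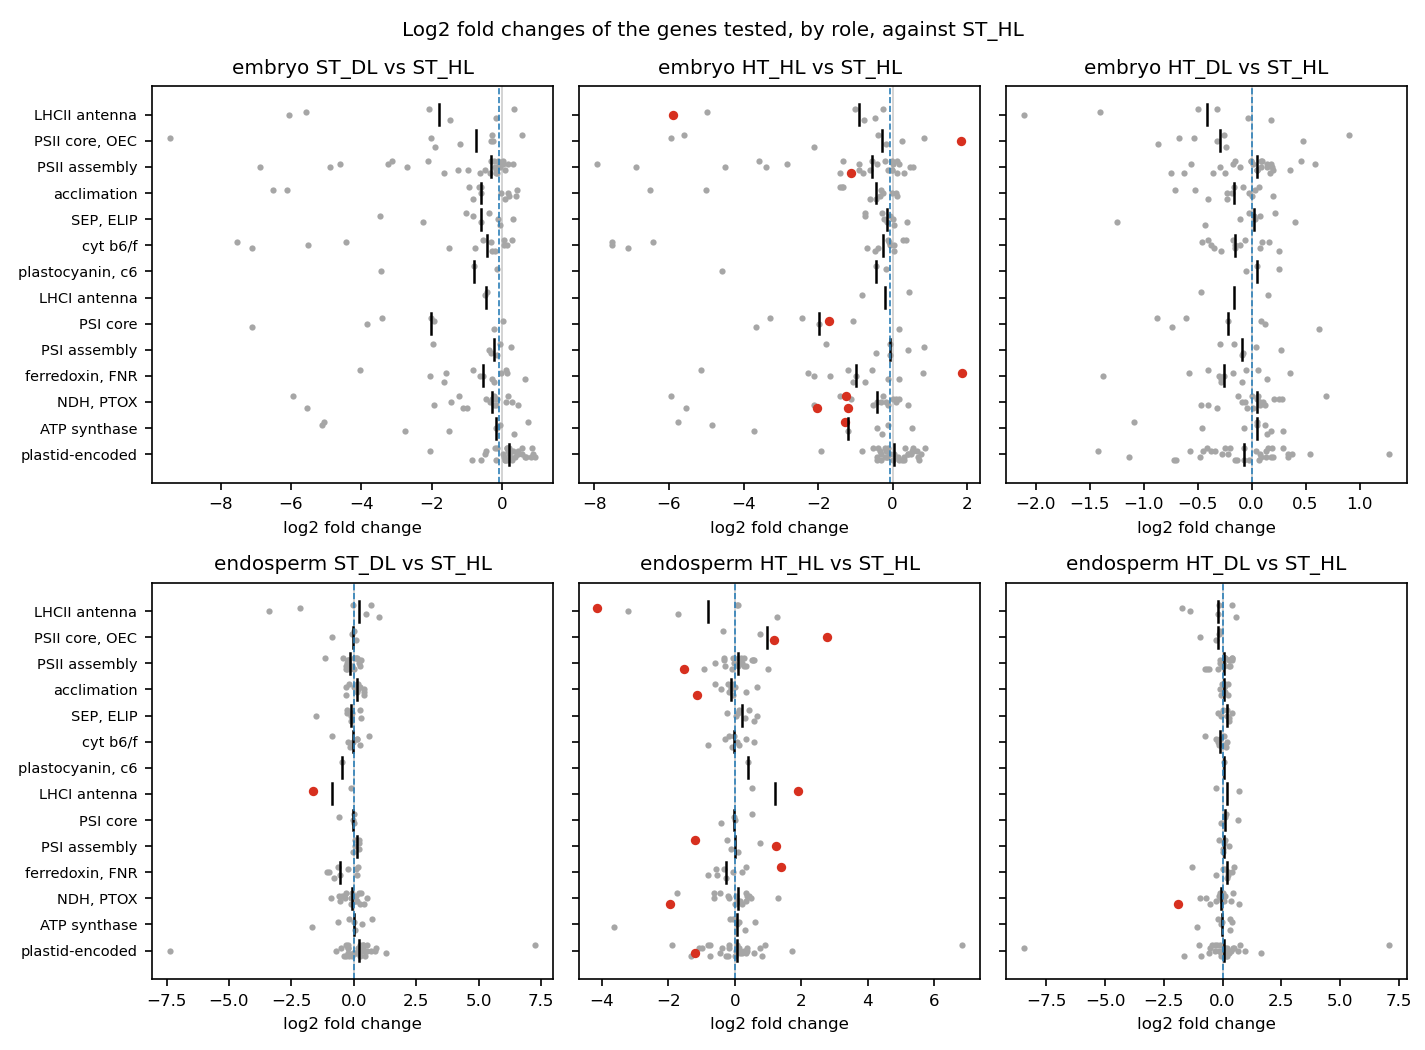
Log2 fold change (horizontal axes, scaled for each panel) of every member tested, by role, for the 3 comparisons with ST_HL in each tissue. Red points are called members, grey points are not, black bars are medians of the role and dashed blue lines are medians of all genes tested. The panels for embryo ST_DL and embryo HT_DL hold no red point, and that for endosperm HT_HL holds 11.

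Both abundant Cpn60 genes differed between environments in the endosperm by less than the fold needed for a call. The alpha gene Solyc11g069790.2.1 had 1319.8, 1207 and 1145 CPM in ST_HL, 1432, 1464 and 1686 CPM in HT_HL and 780.0, 866 and 829 CPM in ST_DL. It was 0.33 ± 0.09 higher on the log2 scale in HT_HL (adjusted p = 0.0177 by edgeR) and differed by -0.57 ± 0.09 in ST_DL (adjusted p = 0.00632 by edgeR), with no overlap in either case. The beta gene Solyc01g028810.3.1 gave 0.43 ± 0.08 and -0.40 ± 0.08 (adjusted p = 0.00341 and 0.0201 by edgeR). In the embryo neither passed the adjusted threshold in these comparisons (adjusted p between 0.165 and 0.978 by edgeR). A less abundant alpha gene (Solyc06g075010.4.1) was lower in HT_HL endosperm, at -0.63 ± 0.15 (adjusted p = 0.0116 by edgeR).

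Few members were called for dim light at standard temperature. In the embryo none of 171 was called, beside 0.587% of all genes tested (0.0935% higher and 0.493% lower). An unadjusted p below 0.05 was found for 47 members (8 higher and 39 lower), which is 27.5% beside 23.8% of all genes tested. Without the 4 libraries that stood apart it was found for 12 of 143 members, and for 1319 higher and 1260 lower of 18179 genes. The member share was then the smaller one. DESeq2 called 10 lower members of 244 tested, beside 2.57% of all genes that it called lower. The member median was -0.25 (-0.08 for all genes tested) and -0.07 without the 4 libraries, where the smallest adjusted p was 0.104. PsbO Solyc02g065400.3.1 was the only member past the adjusted threshold, below the fold needed for a call, with 16.4, 16.7 and 15.7 CPM in ST_DL against 9.76 to 12 CPM in ST_HL (0.57 ± 0.13, adjusted p = 0.0499 by edgeR). In the endosperm, 1 of 141 members was called, beside 1.14% of all genes tested (0.276% higher and 0.865% lower). It was LHCa3, at 0.367, 0.164 and 0.216 CPM in ST_DL and 0.659 to 0.888 CPM in ST_HL (-1.65 ± 0.33, adjusted p = 0.02 by edgeR). The ST_DL levels were only a few counts, since 3 counts were 0.157 to 0.164 CPM in these libraries. Leaving out 1 library gave 0 to 1 lower calls. TROL (Solyc10g009570.3.1), which tethers FNR to the thylakoid in Arabidopsis, was lower by less than the fold threshold (-0.80 ± 0.18, adjusted p = 0.0371 by edgeR), at 1.62, 1.48 and 1.51 CPM against 2.72, 2.28 and 3.05 CPM.

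Heat combined with dim light gave few called members against ST_HL, and few called genes in all, and closeness to ST_HL was not tested. Both embryo groups of this comparison mixed libraries that stood apart with others. In the embryo no member and no other gene was called (0% of all genes tested), although 9 members, and 529 higher and 475 lower genes in all, had an unadjusted p below 0.05. DESeq2 called no member, and 1 higher and 6 lower genes in all. ST_HL and HT_DL embryo libraries with the same replicate number deviated together from their group means, and with that number as a block the count of called members was still 0. In the endosperm the ndhA splicing factor was the only called member of 141, beside 0.599% of all genes tested (0.354% higher and 0.245% lower). It had 1.23, 2.01 and 1.06 CPM, well under the 4.4 to 6.06 CPM of ST_HL (-1.90 ± 0.26, adjusted p = 0.0133 by edgeR), and the call was lost without ST_HL replicate 2 and in a fit of the 2 conditions alone.

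The effect of light under heat was read from HT_DL against HT_HL, a comparison that shares HT_HL with those above. In the embryo 8 of 171 members were called, 5 higher and 3 lower, or 4.68% beside 3.85% of all genes tested (2.36% higher and 1.49% lower). PsaE was higher in HT_DL, at 7.68, 6.79, 7.43 and 6.71 CPM (1.48 ± 0.22, adjusted p = 0.00245 by edgeR, held in 13 of 13 alternatives), and NdhV was higher as well (1.31 ± 0.24). PsbR was lower, at 2.94, 1.76, 2.27 and 1.59 CPM (-1.36 ± 0.36), and so was the ferredoxin gene, at 4.83, 2.05, 2.23 and 4.1 CPM (-2.03 ± 0.48). The HT_DL levels of all 4 genes overlapped those of ST_HL. The calls of PsbR and ferredoxin each held in 7 of 13 alternatives and were lost without HT_DL 2, HT_DL 3, HT_HL 1 or HT_HL 3. That of PsbR was also lost without HT_DL 4, and that of ferredoxin without the 4 libraries (-1.60). An ELIP gene (Solyc09g082690.3.1), a chlorophyll-binding protein made under light stress, had 6.53, 6.43 and 13.3 CPM in HT_HL and 4.55, 1.88, 2.43 and 2.46 CPM in HT_DL, but its call (-1.64 ± 0.51, adjusted p = 0.0487 by edgeR) held in 3 of 13 alternatives only and was lost without any 1 of these libraries except HT_DL 1. BFA3 (1.33 ± 0.34, lost without HT_HL 1, HT_HL 2 or the 4 libraries) and the PSII assembly factor RBD1 (Solyc01g097910.2.1, 1.49 ± 0.40, 0.90 without the 4 libraries, and lost without HT_DL 2, HT_DL 3, HT_HL 1 or HT_HL 2) were higher. A low PsbR copy (Solyc07g066310.3.1) had 1, 22, 21 and 3 counts in HT_DL and none in HT_HL.

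In the endosperm the same comparison gave 8 called members of 141, 3 higher and 5 lower, or 5.67% beside 5.93% of all genes tested (2.68% higher and 3.25% lower). PsbY, at 2.86, 1.26 and 1.61 CPM in HT_DL (-3.75 ± 0.53, adjusted p = 0.000951 by edgeR), ferredoxin Solyc01g103920.3.1, at 0.691, 0.503 and 0.452 CPM (-2.69 ± 0.40, adjusted p = 0.00115 by edgeR), and the PSII repair protein Psb27 (Solyc07g054290.1.1, -1.78 ± 0.38) were lower and held in 11 of 11 alternatives. LHCa3 (-1.22 ± 0.26) and PsbR (-1.47 ± 0.40) were lower too. APE rose to 3.65, 4.38 and 3.17 CPM (1.08 ± 0.17), lost only without HT_DL replicate 2. HCF101 (1.05 ± 0.30) lost its call without HT_DL 2, HT_HL 1 or HT_HL 3, and CRR1 (2.17 ± 0.63) without HT_DL 3 or any HT_HL library. For CRR1, HT_DL replicate 3 had 14.6 CPM and the other 2 libraries 2.96 and 2.82 CPM.

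Heat under dim light (HT_DL against ST_DL) gave 1 called member of 171 in the embryo, beside 1.23% of all genes tested (0.836% higher and 0.395% lower). SEP2 (Solyc04g053130.4.1) had 9.47, 18.9, 18 and 12 CPM against 7.66, 8.37 and 6.61 CPM, highest in HT_DL replicates 2 and 3, and without the 4 libraries its log2 fold change fell from 1.01 ± 0.24 to 0.52. Leaving out HT_DL 2, HT_DL 3 or any ST_DL library also ended the call. In the endosperm 6 of 141 members were called, 5 higher and 1 lower, or 4.26% beside 4.01% of all genes tested (2.96% higher and 1.05% lower). The ndhA splicing factor was lower, from 6.08, 7.33 and 8.16 CPM in ST_DL (-2.33 ± 0.26, adjusted p = 0.000477 by edgeR, held in 11 of 11 alternatives). LHCa3 was higher (2.34 ± 0.32), against ST_DL levels of only a few counts. Also higher were a ferredoxin gene (Solyc11g006910.3.1, 1.48 ± 0.39, lost without ST_DL 1, ST_DL 2, HT_DL 1 or HT_DL 2), Psb33 (Solyc11g042640.2.1), ATP synthase delta (Solyc12g056830.1.1) and ELIP Solyc09g082690.3.1. ELIP had 54.2, 22.3 and 10.1 CPM in HT_DL and 7.34, 8.43 and 11.2 CPM in ST_DL, so its groups overlapped, and leaving out HT_DL 1, HT_DL 2 or any ST_DL library ended the call.

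**Figure D4:**
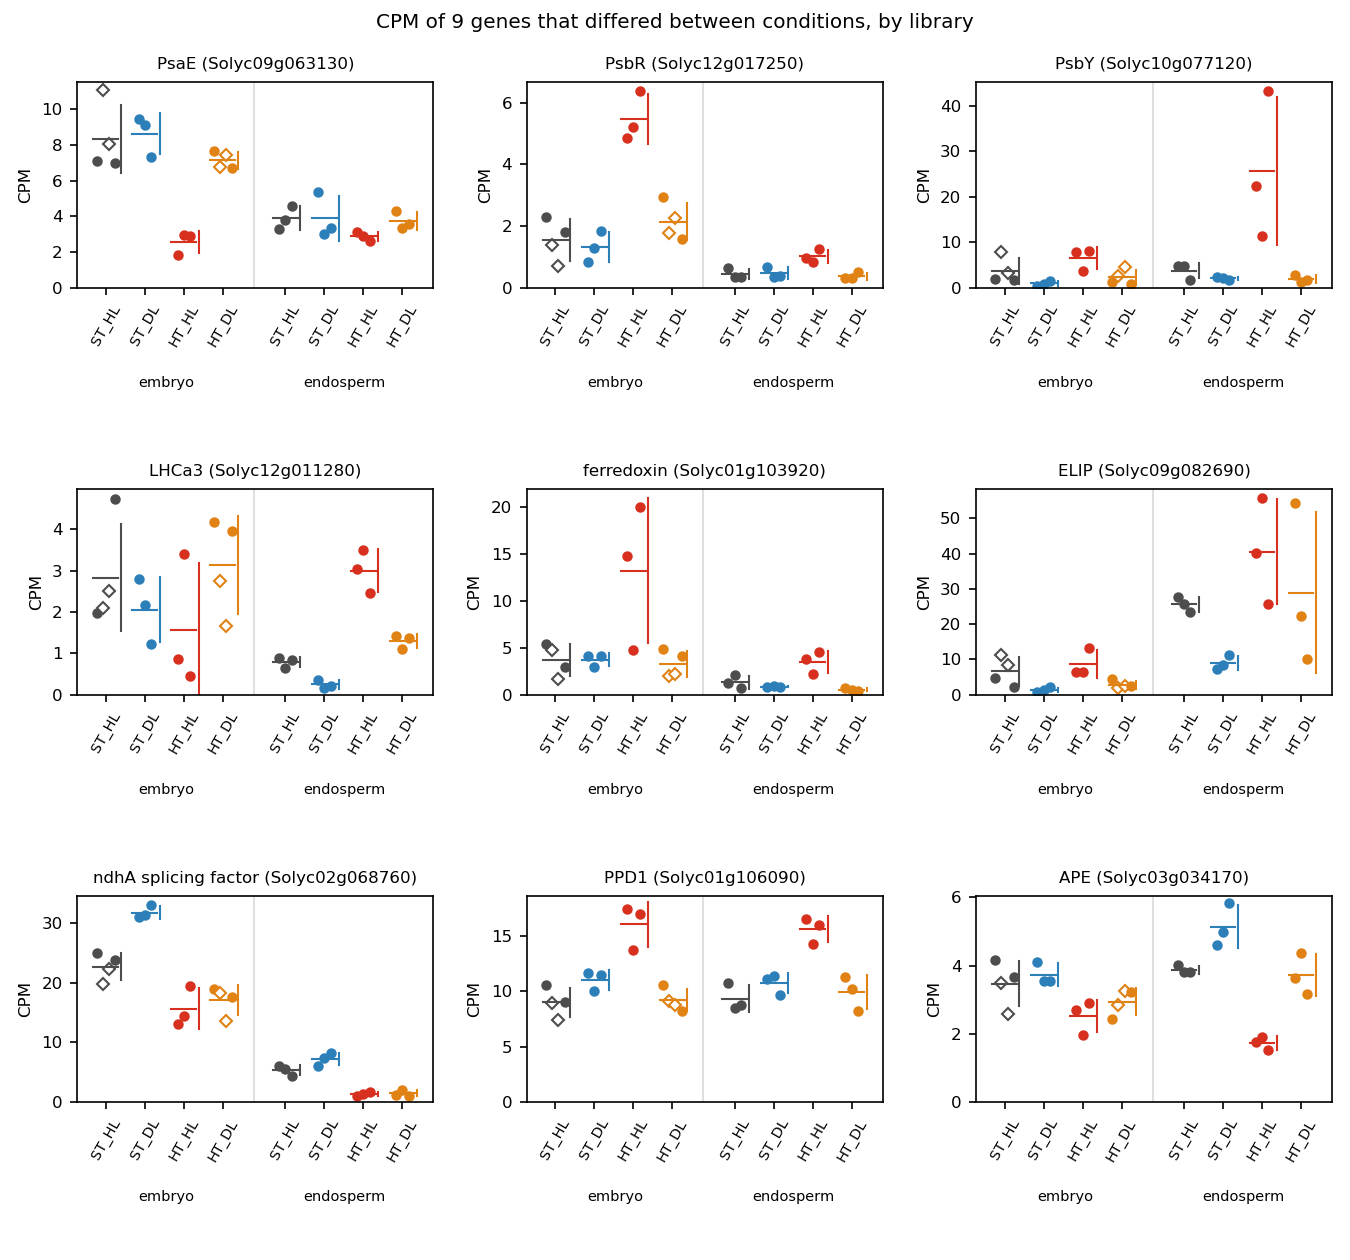
CPM (vertical axes, from 0) of 9 members that differed between conditions, in each of the 26 libraries. Points are libraries, open diamonds are ST_HL 2 and 3 and HT_DL 2 and 3 of the embryo, horizontal lines are means and vertical lines are 1 SD on each side. PsaE is low in HT_HL embryo (1.82 to 2.94 CPM), PsbY is high in HT_HL endosperm (11.3 to 43.2 CPM), and the ndhA splicing factor lies between 1.05 and 2.01 CPM in both HT conditions of the endosperm.

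Whether light acted differently at the 2 temperatures was tested as an interaction in the same fits, with adjusted p below 0.05 and no fold threshold. In the embryo 3 of 171 members passed, beside 3.27% of all genes tested (1.71% positive and 1.55% negative). An unadjusted p below 0.05 was found for 71 members, which is 41.5% beside 33.9% of all genes tested. Without the 4 libraries it was found for 13 of 143 members, and for 1426 positive and 1321 negative of 18179 genes. The member share was then the smaller one. PPD1 (Solyc01g106090.3.1), a PSI assembly factor in Arabidopsis, had 17.4, 13.7 and 17 CPM in HT_HL embryo and between 7.37 and 11.6 CPM in the other 11 embryo libraries (interaction -1.07 ± 0.20, adjusted p = 0.0287 by edgeR). PsaE (1.47 ± 0.30) and LHCb1/2/3 Solyc03g005760.1.1 were the others. Without the 4 libraries PPD1 (-0.97) and PsaE (1.17) no longer passed and the antenna gene was not tested. Of all 18179 genes in that fit, only 1 positive and 1 negative passed. All 3 members were also lost without ST_HL 2, ST_HL 3, HT_DL 2, HT_DL 3, HT_HL 1 or any ST_DL library. DESeq2, which tested 244 members, gave 45 positive and 3 negative members, beside 9.92% and 5.65% of all genes.

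In the endosperm 5 of 141 members passed, beside 5.14% of all genes tested (1.76% positive and 3.38% negative). PPD1 passed here too (-0.87 ± 0.20, adjusted p = 0.0346 by edgeR), with 16.5, 14.3 and 16 CPM in HT_HL and between 8.24 and 11.4 CPM in the other 9 libraries. PsbX (Solyc05g025590.4.1), a small PSII subunit, had 25.4, 22.3 and 17.9 CPM in HT_HL and between 11.4 and 13.6 CPM elsewhere (-0.85 ± 0.17). Both genes were thus highest in HT_HL with no overlap. PsbY (-2.88 ± 0.73), the cytochrome b6 assembly factor CCB1 (Solyc02g005210.3.1, -0.57 ± 0.14) and TROL (1.26 ± 0.26) were the remaining 3. Each of the 5 lost significance in 6 to 12 of 16 alternatives, all 5 of them without ST_HL 3, ST_DL 2, ST_DL 3, HT_DL 2 or HT_HL 1.

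Embryo and endosperm were compared as the mean over the 4 conditions in a fit of all 26 libraries. Of 180 members tested, 37 were higher in the embryo and 20 in the endosperm, or 31.7% beside 33.5% of all 21153 genes tested (14.9% and 18.5%). The median log2 fold change was 0.34 for members and 0.03 for all genes. Without the 4 libraries that stood apart the split was 30 to 26 of 160 members and the median 0.06.

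Of 27 PSII assembly genes tested, 10 were higher in the embryo and 1 in the endosperm, beside 14.9% and 18.5% of all genes tested. Without the 4 libraries the counts were 6 and 1 of 21. LPA3 (Solyc06g068480.3.1), which in Arabidopsis helps to insert the core antenna protein CP43, was 11.6 ± 2.75 CPM (SD, n = 14) in the embryo and 2.45 ± 0.578 CPM (SD, n = 12) in the endosperm. HCF243 (Solyc07g062730.1.1), needed for D1 in Arabidopsis, was 46.8 ± 6.21 CPM and 19.1 ± 4.73 CPM. The ranges did not overlap for either gene, and the log2 fold changes were 2.23 ± 0.11 and 1.31 ± 0.07. All 4 called cytochrome b6/f members, namely CCB2, CCB3, CCB4 and HCF222, were assembly factors higher in the embryo, beside the same 14.9% of all genes tested. Without the 4 libraries HCF222 (0.74) was below the fold needed for a call, and 3 of 10 members tested in this group were called higher.

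The 3 members with the largest embryo excess by the naming rule were PsbP, a ferredoxin gene and the ndhA splicing factor. PsbP Solyc07g044860.3.1 lay between 0.869 and 11.1 CPM in the embryo and between 0 and 0.507 CPM in the endosperm (4.45 ± 0.49, and 3.59 without the 4 libraries). Ferredoxin Solyc04g009710.2.1 lay between 1.87 and 7.29 CPM and between 0.1 and 0.594 CPM (3.89 ± 0.27). The ndhA splicing factor lay between 13 and 32.9 CPM and between 1.05 and 8.16 CPM (2.83 ± 0.11). All 3 were higher in every embryo library than in any endosperm library, and kept their calls in 31 of 31 alternatives.

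Regulators of light use were called in both directions between the tissues. Zeaxanthin epoxidase (Solyc02g090890.4.1), which turns zeaxanthin back to violaxanthin and is also an early enzyme of abscisic acid synthesis, had 83.3 ± 19.9 CPM (SD, n = 14) in the embryo and 206 ± 39.8 CPM (SD, n = 12) in the endosperm. The terminal oxidase PTOX (Solyc11g011990.2.1), which passes electrons from plastoquinol to oxygen, had 18.5 ± 3.27 CPM and 37.5 ± 4.53 CPM. Neither overlapped between tissues (log2 fold changes of -1.32 ± 0.09 and -1.03 ± 0.08), and without the 4 libraries PTOX was below the fold needed for a call. STN8 (Solyc10g085680.2.1), the kinase of PSII core proteins, was higher in the endosperm (-1.76 ± 0.17), while STN7 (Solyc12g021280.2.1), the kinase of the PSII antenna, was higher in the embryo (1.07 ± 0.09). Violaxanthin de-epoxidase (Solyc04g050930.3.1) was also called higher in the endosperm (-2.51), and a lipocalin of the photoprotection group (LCNP, Solyc12g005180.2.1) in the embryo (1.59). Without the 4 libraries these fold changes were -5.75 ± 0.39 and 1.15 ± 0.20. Of 9 SEP and ELIP genes tested, 3 were called higher in the endosperm, beside 18.5% of all genes tested, and the other 6 were not called. The 3 were SEP4, SEP5 and ELIP Solyc09g082690.3.1. Without the 4 libraries SEP4 (-0.95) was below the fold needed for a call, while 3 of 9 genes of this group were still called higher in the endosperm.

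That ELIP gene lay between 0.899 and 13.3 CPM in the embryo and between 7.34 and 55.6 CPM in the endosperm (-2.53 ± 0.27, adjusted p = 2.26e-08 by edgeR). Its neighbour by ID, ELIP Solyc09g082680.3.1, had between 40.3 and 68.2 CPM in the embryo and between 55.5 and 73.2 CPM in the endosperm (-0.38 ± 0.05, below the fold for a call) and was called in none of these comparisons. Reads from such similar copies were divided by the quantification, so the values of each copy are uncertain, as they are for the LHCb1/2/3 genes. LHCb4 (Solyc09g014520.3.1), a minor antenna protein of PSII, was 3.03 to 5.58 CPM in the endosperm and 0.0529 to 2.66 CPM in the embryo, without overlap (-2.24 ± 0.27). Ferredoxin genes went both ways, with Solyc10g044520.3.1 higher in the endosperm (-1.27 ± 0.14).

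**Figure D5:**
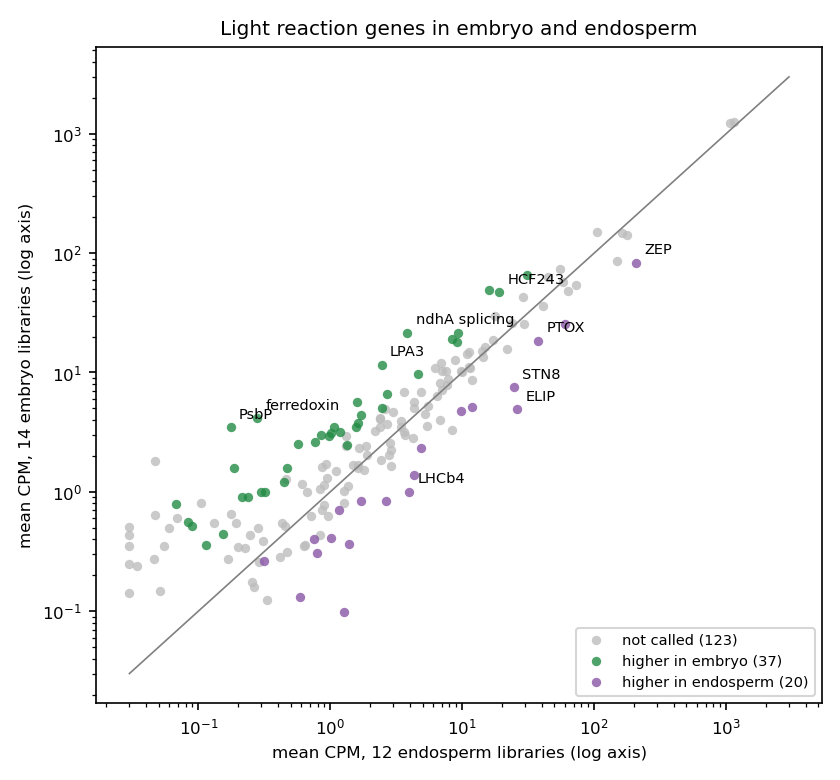
Mean CPM over the 14 embryo libraries (vertical, log axis) against the mean over the 12 endosperm libraries (horizontal, log axis) for the 180 members tested, with means under 0.03 CPM drawn at 0.03 and the line marking equal means. Green points are the 37 members called higher in the embryo and purple points the 20 called higher in the endosperm.

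The effect of heat in high light differed between the tissues for 2 of 180 members, beside 1.73% of all genes tested (0.747% positive and 0.988% negative). Same-numbered embryo and endosperm libraries of ST_HL and HT_HL deviated together, and with the seed lot (condition and number) as a block the counts were 1 positive and 4 negative in place of 1 and 1. The ndhA splicing factor fell more in the endosperm (embryo minus endosperm 1.44 ± 0.29, adjusted p = 0.0175 by edgeR), since the embryo had 24.9, 19.7, 22.2 and 23.7 CPM in ST_HL and 13, 14.4 and 19.5 CPM in HT_HL. PsaE fell more in the embryo (-1.27 ± 0.32, adjusted p = 0.0427 by edgeR, and -1.01 and no longer significant without the 4 libraries), as the endosperm had 3.29, 3.8 and 4.6 CPM in ST_HL and 3.14, 2.9 and 2.62 CPM in HT_HL. The first call was lost without ST_HL or HT_HL endosperm replicate 1, and the second without ST_HL embryo 2 or 3, HT_HL embryo 1 or any ST_HL or HT_HL endosperm library. For ST_DL and HT_DL no member differed between tissues (0.0378% of all genes tested did for ST_DL, 0.0284% positive and 0.00945% negative, and 0.00945% for HT_DL), with 17 and 7 members at an unadjusted p below 0.05. DESeq2 gave 0 and 1 members.

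Plastid-encoded components summed to between 158 and 629 CPM. Of that, 4 IDs of the atpB and atpE genes, which encode ATP synthase subunits, took between 126 and 515 CPM, and all other components together between 31.8 and 169.6 CPM. The sums varied within groups, as in ST_HL embryo with 295, 526, 158 and 545 CPM and ST_DL embryo with 180.2, 606 and 569.7 CPM, so that all 4 embryo conditions overlapped. Neither did they follow the 4 libraries that stood apart (158 to 526 CPM, against 180.2 to 606 CPM). Reads were then added per component, since some components had several IDs. With these sums 28 components were tested in the embryo and none was called in any condition comparison. In the endosperm 1 of 26 was called, atpI, lower in HT_HL. These are mRNA libraries, and how evenly plastid RNA was carried into them was not tested. Between tissues, only psbE with psbF was called, higher in the embryo.

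Neighbouring pathways are given from lists by their counts and medians. With heat in high light, 3 of 31 Calvin cycle genes tested in the embryo were called, each of them lower. Of all genes tested 4.84% were called (1.43% higher and 3.41% lower). The Calvin cycle median on the log2 scale was -0.35. Without the 4 libraries it was 0.13, with 1 higher and 0 lower calls among 24 genes. Of 19 photorespiration genes 2 were called (median -0.16, and -0.09 without the 4), of 116 genes of mitochondrial oxidative phosphorylation 3 (-0.22 and 0.13) and of 24 lipid-body protein genes 2 (-0.09 and -0.29). Without the 4 libraries these lists gave 0 higher and 1 lower of 17, 1 higher and 4 lower of 116, and 0 higher and 2 lower of 23. The members' own medians were -0.31 and -0.08. In the endosperm, beside 5.85% of all genes tested, 2 of 33 Calvin cycle genes (median 0.20), 3 of 114 mitochondrial genes (0.04) and 1 of 23 lipid-body protein genes (0.09) were called. Of 20 photorespiration genes none was called by edgeR or DESeq2 (-0.22), and 10 had an unadjusted p below 0.05. The members' median was 0.05.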

How the data were processed

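According to the study's methods and labels, the authors quantified reads with Salmon 0.14.1 on tomato ITAG4.0 transcripts and deposited expected counts for 26 libraries, with no normalization. Salmon divides reads among similar transcripts. The values (10.5% not whole) were rounded. edgeR 4.0.16 in R 4.3.3 was fitted to each tissue by condition, and to all libraries for comparisons of tissues (TMM, filterByExpr at 10 counts and 15 in total, quasi-likelihood F-test). A call needed an adjusted p (Benjamini-Hochberg) under 0.05 together with a log2 fold change beyond 1 in size, and interactions needed the adjusted p alone. The standard error (SE) is the fold change divided by the square root of F. Printed CPM use TMM sizes from all 26 libraries, while fold changes come from the fits. Depth was 20450644 to 21519318 counts, and 3 counts were 0.119 to 0.164 CPM. Alternatives were DESeq2 1.42.0, RLE normalization, CPM on plain totals, no filter, no fold threshold, a replicate block, the 2 conditions alone, plastid reads summed per component, leaving out each library and leaving out the 4 embryo libraries. A block in the fit of 2 conditions was added for embryo HT_DL after seeing the data.

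Members and lists were chosen with earlier results of these data known. The naming rule took the 2 members with the highest mean CPM in each role, and in each comparison up to 3 called members in each direction with the largest log2 fold changes, at a mean of at least 1 CPM. Members named outside it, such as NdhV, PSA3, TROL, PPD1, LPA3, PTOX, PetC, STN7 and the PsbO and plastocyanin copies, were chosen after their values were seen, and members of the rule that are not in the text are covered by the sums and counts. Replicate pairs differed by 3.83 to 110.0 times the sampling noise (chi-square per degree of freedom), so none was the same library counted again. Separate libraries made from the same RNA cannot be recognised in this way. Same-numbered libraries of embryo ST_HL and HT_DL correlated at 0.728 to 0.805 in their deviations from the group means in all 4 pairs, and those of the 2 tissues at 0.102 to 0.437 in ST_HL and 0.129 to 0.346 in HT_HL, though not in every pair of ST_DL and HT_DL. In both of these embryo groups, replicates 2 and 3 were the libraries that stood apart. The labels do not say what the numbers share. The fits were also run on simulated counts with the same dispersion for every gene and genes of few counts left out. No simulated libraries stood apart, so this run does not cover the embryo division or members with few counts. Sequences and coordinates were not used here.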

Additional observations from a re-analysis of the deposited data

Results flagged for a closer look

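In embryo groups of 4 libraries, a single library lay far from the other 3 in 8 of 118 groups searched, where chance flags about 1 in 20 (5.9 groups). HT_DL replicate 1 was high for the thiol oxidoreductase LTO1 (Solyc02g083270.4.1), at 45.2 CPM beside 33.7 to 35.6, for the cytochrome assembly factor Solyc07g063570.4.1, at 16 CPM beside 10.8 to 11.5, and for ferredoxin Solyc04g009710.2.1, at 4.69 CPM beside 2.62 to 2.8. The same library was low for zeaxanthin epoxidase (Solyc02g090890.4.1), at 59.2 CPM beside 95.6 to 103, and for Cpn60 alpha (Solyc11g069790.2.1), at 1331 CPM beside 1408 to 1414. ST_HL replicate 1 was high for Cpn60 beta (Solyc01g028810.3.1), at 1357 CPM beside 1139 to 1175. PYG7 (Solyc11g017200.2.1), a PSI assembly factor, was high in ST_HL replicate 4, at 18.5 CPM beside 15.7 to 15.9, and low in HT_DL replicate 2, at 14.4 CPM beside 15.6 to 15.8.

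In the embryo, the interaction of light and temperature passed the adjusted threshold of edgeR for PPD1 (-1.07 ± 0.20), LHCb1/2/3 Solyc03g005760.1.1 (9.84 ± 2.43, fitted from counts near 0 in HT_HL and ST_DL) and PsaE (1.47 ± 0.30). Without the 4 libraries that stood apart, PPD1 (-0.97) and PsaE (1.17) did not pass and the antenna gene was not tested. Of all 18179 genes in that fit, only 1 positive and 1 negative passed. In the endosperm the interaction passed for PPD1 (-0.87 ± 0.20), CCB1 (-0.57 ± 0.14), PsbX (-0.85 ± 0.17), TROL (1.26 ± 0.26) and PsbY (-2.88 ± 0.73). The interaction of tissue with heat in high light passed for the ndhA splicing factor (1.44 ± 0.29) and PsaE (-1.27 ± 0.32). Each of these results lost significance in some alternatives, from 2 of 18 for the ndhA splicing factor to 12 of 16 for CCB1.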

How the results depend on the processing

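Counts of called members changed with the processing as follows, with the count as reported in brackets, and the cause was not tested. Without the 4 embryo libraries that stood apart, 143 members were tested in place of 171. Embryo HT_HL against ST_HL then gave 4 (2) higher and 2 (7) lower. HT_DL against HT_HL gave 2 (5) higher and HT_DL against ST_DL 0 (1) higher. The embryo interaction gave 0 (2) positive and 0 (1) negative members, beside 1 positive and 1 negative of all 18179 genes. With only the 2 conditions fitted, embryo HT_HL gave 1 higher and 2 lower, HT_DL against HT_HL 2 higher and 0 (3) lower, HT_DL against ST_DL 0 higher, endosperm HT_HL 3 (5) higher, HT_DL against ST_HL 0 (1) lower and HT_DL against ST_DL 2 (1) lower. With no fold threshold, the embryo gave 5 higher for HT_HL, 1 (0) higher for ST_DL, 9 higher and 7 lower for HT_DL against HT_HL and 4 higher and 4 (0) lower for HT_DL against ST_DL. The endosperm then gave 18 higher for HT_HL, 5 (1) lower for ST_DL, 6 (3) higher and 15 (5) lower for HT_DL against HT_HL and 11 (5) higher and 4 lower for HT_DL against ST_DL, and the tissues 65 (37) and 36 (20). DESeq2 gave, in the embryo, 26 lower for HT_HL, 10 (0) lower for ST_DL, 20 higher for HT_DL against HT_HL, 5 higher and 1 lower for HT_DL against ST_DL and 45 positive and 3 negative interactions. In the endosperm it gave 2 lower for ST_DL, 2 lower for HT_DL against ST_DL and 5 (1) positive interactions, and between tissues 7 (1) negative for HT_HL and 1 (0) positive for HT_DL. RLE normalization gave 0 higher for embryo HT_DL against ST_DL. No filter gave 0 there, 0 positive embryo interactions, 3 higher for endosperm HT_DL against ST_DL and 0 negative between tissues for HT_HL.

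A replicate block gave, in the embryo, 40 lower for HT_HL, 28 lower for ST_DL, 33 higher for HT_DL against HT_HL, 23 higher for HT_DL against ST_DL and 54 positive and 2 negative interactions. In the endosperm it gave 1 higher for HT_DL against HT_HL, 1 higher for HT_DL against ST_DL and 0 positive and 1 (4) negative interactions, and between tissues 4 negative for HT_HL. Outside embryo ST_HL and HT_DL, deviations of same-numbered libraries of 2 conditions of a tissue correlated between -0.572 and 0.46. What these libraries share beyond the number is not given in the labels. For embryo HT_DL against ST_HL the block left 0 calls (smallest adjusted p 0.652 by edgeR, or 0.183 with the 2 conditions alone).

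Leaving out 1 library gave 1 to 2 higher and 2 to 13 lower for embryo HT_HL, 0 to 1 lower for ST_DL, 2 to 13 higher and 0 to 3 lower for HT_DL against HT_HL, 0 to 2 higher for HT_DL against ST_DL and 0 to 40 positive and 0 to 2 negative interactions. In the endosperm it gave 3 to 6 higher and 3 to 9 lower for HT_HL, 0 to 1 lower for ST_DL and for HT_DL, 1 to 3 higher and 4 to 8 lower for HT_DL against HT_HL, 1 to 3 higher and 1 lower for HT_DL against ST_DL and 0 to 3 positive and 0 to 7 negative interactions. Between tissues it gave 36 to 38 and 18 to 23, with 0 to 1 positive and 0 to 3 negative for HT_HL and 0 to 1 positive for HT_DL.

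No log2 fold change of a member named by rule changed direction. With 1 library left out 324 values kept their side of the threshold and 140 lost it, and under the other alternatives 183 kept it and 41 lost it. With CPM on plain library totals, 65 of the group sums moved by more than 1 SD between replicates and 70 by less. Depth limits what can be said of the antenna and photosystem genes, since 3 counts were 0.119 to 0.164 CPM in a library.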
